A study of Mus musculus with 15 samples.

Results

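The transcripts of 9 genes that organise lymphoid tissue were followed in the islets of prediabetic NOD mice: the chemokines Ccl19, Ccl21a and Cxcl13, the chemokine receptor Ccr7, the lymphotoxins Lta and Ltb with their receptor Ltbr, and the cytokines Tnfsf13b (BAFF) and Tnfsf11 (RANKL). They were taken by name from the 48709 genes of the count table, as organisers of tertiary lymphoid structures. All 9 were listed once and had enough reads to be tested. RNA was sequenced from islets of 15 NOD females, 3 at each of the ages 4, 6, 8, 10 and 12 weeks, and each library came from a different mouse. All groups shared the NOD genotype and carried no treatment, so age was the only labelled difference and no mouse of a diabetes-resistant strain was compared. Islets were freed with collagenase, enriched on a density gradient and hand-picked, and immune, stromal and vessel cells that stayed attached to them were sequenced as well. In such bulk samples, fewer cells of a type and less RNA per cell cannot be told apart.

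Lymphoid tissue is divided into zones by chemokines that stromal cells secrete. Ccl19 and Ccl21 draw T cells and mature dendritic cells that carry the receptor Ccr7, and Cxcl13 draws B cells that carry Cxcr5. In the lymph node and in tertiary lymphoid structures, lymphocytes expressing lymphotoxin alpha and beta signal to the lymphotoxin beta receptor on stromal cells, and the noncanonical NF-kB pathway with RelB then drives these chemokines, while RANKL takes part in lymph node formation and BAFF sustains B cells. NOD islets are known for infiltrates with separate T and B cell areas.

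The libraries held 25407492 to 41616275 counts with a median of 28004882. The limit of 3 counts, under which values were not told apart, corresponded to 0.0754 to 0.128 CPM, the unit of normalized level used here (counts over TMM-scaled library size). Mice of the same age differed by far more than counting error, as chi-square values of 15.9 to 127 times their degrees of freedom showed. The islet label was borne out by the level of 12 endocrine markers, which had a mean of 11.4 to 12.4 log2 CPM in every library. Acinar markers were also present, at 7.37 to 10.9. Mouse 2 at 6 weeks and mouse 1 at 12 weeks carried reads of intestinal genes, with 1883 and 10460 summed counts of 6 genes against 90 to 184 in the other libraries. At 4 weeks, mouse 1 had the highest mean of 24 leukocyte markers (2.16 log2 CPM against 0.68 and -0.49).

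The 9 genes lie at 7 places in the genome (GRCm38). Ccl19 (chromosome 4, 42754525 to 42756577, minus strand) and Ccl21a (chromosome 4, 42772860 to 42773993, minus strand) are neighbours. Ltb (chromosome 17, 35194439 to 35196320, plus strand) and Lta (chromosome 17, 35203165 to 35205351, minus strand) enclose Tnf (35199381 to 35202007) within the major histocompatibility complex. Cxcl13 lies on chromosome 5 (95956951 to 95961068, plus strand), Ltbr on chromosome 6 (125306571 to 125313885, minus strand), Tnfsf13b on chromosome 8 (10006467 to 10039072, plus strand), Ccr7 on chromosome 11 (99144196 to 99155077, minus strand) and Tnfsf11 on chromosome 14 (78277445 to 78308043, minus strand). Since most of these genes moved together, the 250 bases before the start were searched in 8 of the 9 (RefSeq, GRCm38.p6, where Ccr7 was not in the table used). The search was for the kB consensus and for the RelB site, on both strands. The kB consensus was found in 1 gene, Ltb, and in 3.90% of all 32851 promoters. The RelB site was found in 1 gene, Cxcl13, and in 0.317% of all promoters, and this motif was itself described in part on the Cxcl13 promoter. The promoters shown are of the gene that rose most (Cxcl13), of the lymphotoxin subunit with a match (Ltb) and of the chemokine that rose last (Ccl21a, no match). Each is read 5′ to 3′ on the strand of its gene, with the match in capitals, and the Ltb match is on the opposite strand (positions -87 to -78 from the RefSeq start, against -114 to -105 in Cxcl13). A match describes the letters only and does not show that a factor binds.
Cxcl13, chr5:95956689-95956938, plus strand: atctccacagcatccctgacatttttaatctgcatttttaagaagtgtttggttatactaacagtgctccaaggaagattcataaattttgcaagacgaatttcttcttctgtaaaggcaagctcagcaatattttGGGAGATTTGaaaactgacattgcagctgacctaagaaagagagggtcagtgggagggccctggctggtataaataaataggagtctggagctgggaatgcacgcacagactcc
Ltb, chr17:35194257-35194438, plus strand: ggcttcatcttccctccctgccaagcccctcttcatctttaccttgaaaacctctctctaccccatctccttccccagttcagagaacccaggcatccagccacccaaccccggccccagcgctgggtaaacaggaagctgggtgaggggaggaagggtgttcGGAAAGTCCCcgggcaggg
Ccl21a, chr4:42773994-42774241, minus strand: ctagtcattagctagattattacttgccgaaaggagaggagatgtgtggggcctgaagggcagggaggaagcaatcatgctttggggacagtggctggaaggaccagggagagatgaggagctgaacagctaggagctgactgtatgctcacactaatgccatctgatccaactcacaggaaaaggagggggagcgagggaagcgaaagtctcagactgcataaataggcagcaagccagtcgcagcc

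Levels of different genes were set side by side on the TPM scale of the authors, which divides by transcript length. At 4 weeks the order was led by the receptor Ltbr with 18.4 TPM ± 1.51 (SD, n = 3), followed by Ccl21a, Ccl19, Ltb, Cxcl13, Ccr7, Tnfsf13b, Lta and Tnfsf11, the last at 0.192 TPM. Each neighbour in that order overlapped with the next. At 12 weeks the first 4 places were held by Ccl19 (189 TPM ± 42.9), Cxcl13 (178 ± 50.8), Ccl21a (147 ± 110) and Ltb (120 ± 17.5, n = 3 in each), which overlapped with one another in turn. Ltb stayed above Ccr7 (44.7 TPM) in every mouse, Ltbr followed at 30.3 TPM ± 4.68, and Lta, Tnfsf11 and Tnfsf13b were at 6.74, 4.82 and 3.68 TPM, below every Ltbr value. The receptor went from the first place to the sixth, with its own level at 18.4 and 30.3 TPM.

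**Figure D1:**
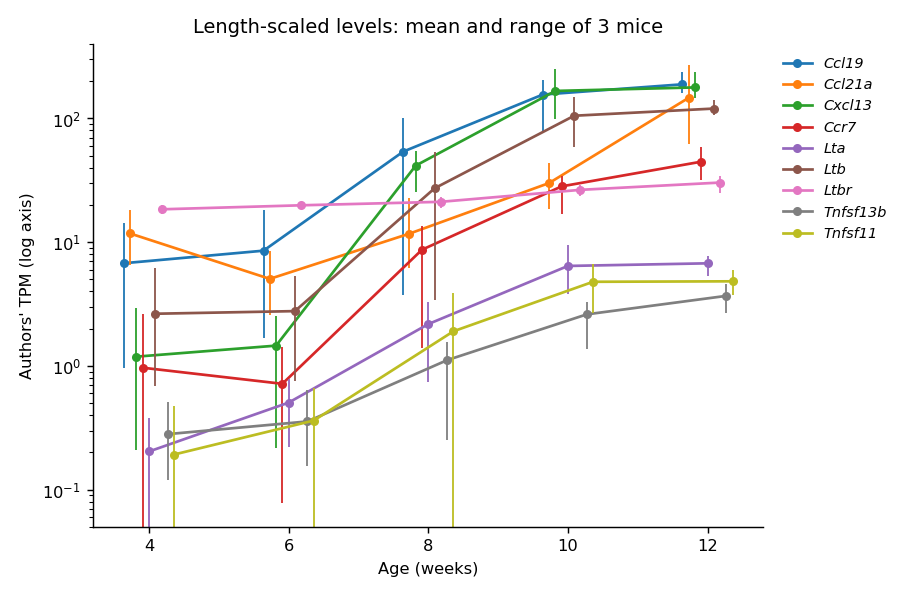
Length-scaled level of each gene (deposited TPM, log axis) against age in weeks, with points for the mean of 3 mice and bars for the lowest and highest mouse, slightly shifted sideways for reading; bars that reach the lower edge include a mouse at or near 0. Ltbr lies between 18.4 and 30.3 TPM at all ages, the means of Ccl19, Cxcl13 and Ltb are above it from 8 weeks, and those of Ccl21a and Ccr7 from 10 weeks.

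Between 4 and 12 weeks all 9 genes were higher, by an adjusted p under 0.05 in the edgeR quasi-likelihood test (9 of 9, against 26.3% of all tested genes called higher), and in all 9 the 3 mice at 12 weeks lay above the 3 at 4 weeks (30.3% of all tested genes did so). At the threshold used in the study, a fold change of at least 1.5 with an unadjusted p under 0.05, 8 genes passed (20.9% of all genes), with Ltbr below the fold. The median log2 fold change of the 9 was 4.43, against -0.05 over all genes. Over the 5 ages together, 8 of 9 changed (56% of all genes), the exception being Ltbr with an adjusted p of 0.0845, which passed under both other scalings (9 of 9) and by DESeq2 (0.0197). The call of Tnfsf11 over the 5 ages was lost by DESeq2 (adjusted p 0.0642), without both libraries that carried intestinal genes (0.0685) and without any of 5 single mice (0.0529 to 0.0696), so the 8 genes called by DESeq2 were not the same 8. The genes, their direction and their calls at 12 against 4 weeks were the same with the size factors of DESeq2 and with library totals alone. Without both libraries that carried intestinal genes 8 of 9 were called, Ltbr having an adjusted p of 0.121. With the mean of 24 leukocyte markers of each mouse as a covariate, a mean of -0.49 to 2.16 log2 CPM at 4 weeks and 5.79 to 6.11 at 12 weeks, 0 of 9 genes and 1 gene of all were called, and that fit cannot tell age and leukocyte RNA apart.

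**Figure D2:**
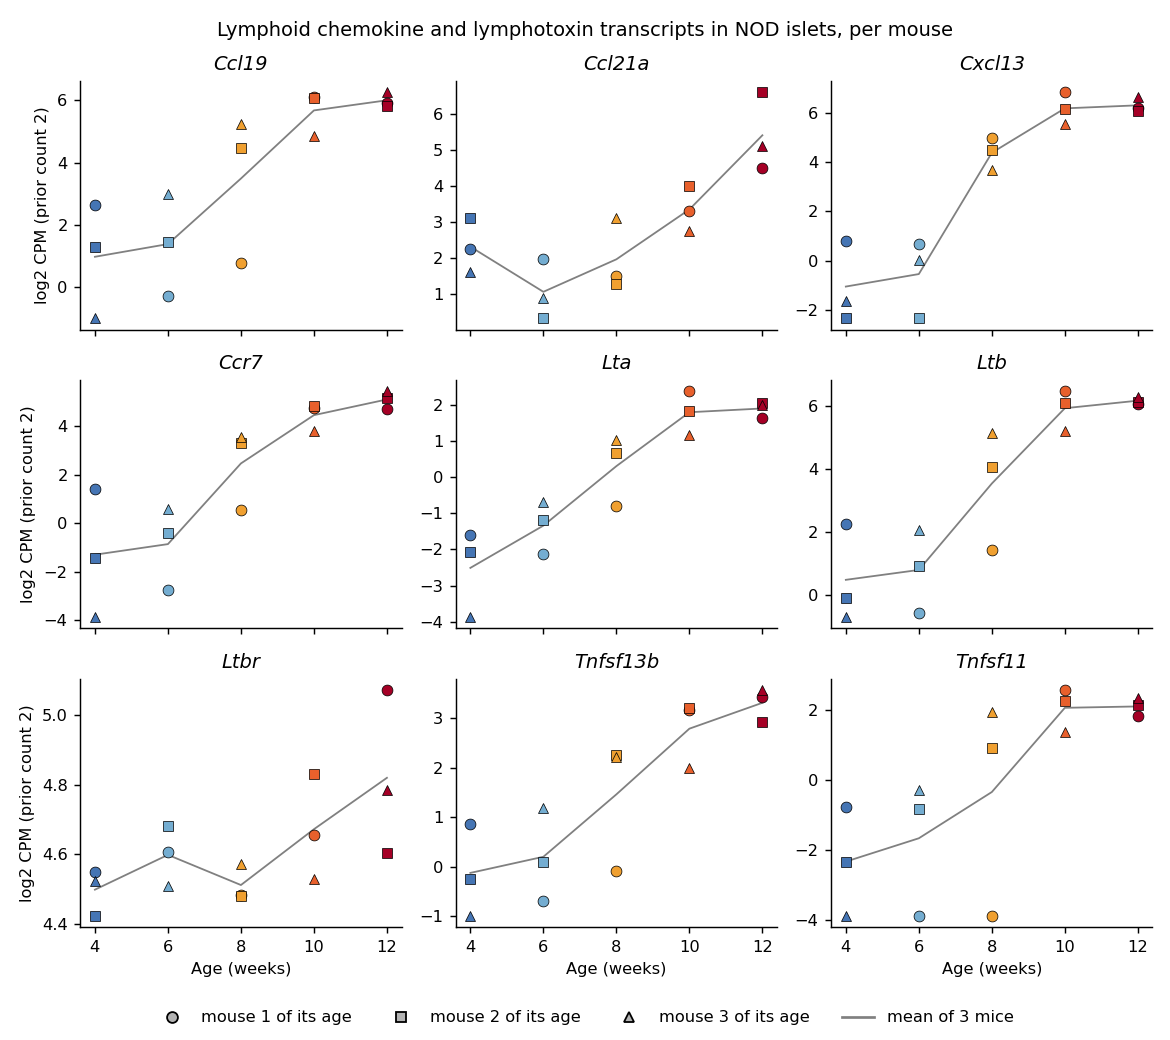
Normalized level of each gene (log2 CPM with a prior count of 2) against age in weeks, 1 point per mouse with a line through the mean of 3 mice; each panel has its own axis, and the axis for Ltbr spans less than 1 log2 unit. Cxcl13 and Lta are above all 4-week mice in every mouse from 8 weeks, Ccl21a and Ltbr only at 12 weeks, and the other 5 genes from 10 weeks.

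Cxcl13, the B cell chemokine, rose most. It was measured at 1.68, 0.128 and 0.253 CPM in mice 1, 2 and 3 at 4 weeks, and at 1.51, 0.132 and 0.946 at 6 weeks. At 8 weeks the values were 31.6, 22.4 and 12.8 CPM, at 10 weeks 115, 71.6 and 47.4, and at 12 weeks 72.8, 68.5 and 101. Every mouse from 8 weeks on was thus far above every younger mouse, and the ages 10 and 12 weeks overlapped. The log2 fold change from 4 to 12 weeks was 6.84 (SE 0.752, fold 114, adjusted p 0.000154). Because the 4-week level rested on 3 to 45 counts, the size was uncertain, and without mouse 1 at 4 weeks the log2 fold change was 8.66.

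Ccl19 and Ccl21a, ligands of Ccr7, had different time courses. Ccl19 stood at 6.14, 2.39 and 0.434 CPM at 4 weeks, 0.753, 2.66 and 7.96 at 6 weeks and 1.64, 21.9 and 37.8 at 8 weeks. It then reached 69.5, 67.1 and 28.7 CPM at 10 weeks and 60.5, 57.0 and 76.6 at 12 weeks. Mice of 4, 6 and 8 weeks overlapped, with a single 8-week mouse at the level of the young ones, and those of 10 and 12 weeks were above all at 4 and 6 weeks. Its log2 fold change from 4 to 12 weeks was 4.43 (SE 1.05, fold 21.6, adjusted p 0.00376), and it was 5.55 without mouse 1 at 4 weeks.

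Ccl21a stayed low for longer. It had 4.64, 8.47 and 2.97 CPM at 4 weeks, 3.84, 1.18 and 1.77 at 6 weeks, 2.74, 2.35 and 8.61 at 8 weeks and 9.73, 15.7 and 6.68 at 10 weeks. Each age up to 10 weeks overlapped with the next, and the values of 22.6, 96.6 and 34.5 CPM at 12 weeks were above all the others. The log2 fold change from 4 to 12 weeks was 3.26 (SE 0.687, fold 9.60, adjusted p 0.00194), and 2.42 without mouse 2 at 12 weeks, the highest. That mouse also had the highest mean of 5 lymphatic endothelium markers at its age (4.32 log2 CPM against 3.21 and 3.61), with Lyve1 at 25.01 CPM against 7.75 and 12.1, whose part in the result was not tested. Lymphatic endothelium is a known source of Ccl21a. Over the 3 mice the list had a mean of 3.73 log2 CPM ± 0.35 at 4 weeks, 3.01 ± 0.28 at 10 weeks and 3.71 ± 0.56 at 12 weeks. Its member Prox1, which endocrine cells also express, had means of 110.1 CPM at 4 weeks and 73.86 at 12 weeks. From 10 to 12 weeks 2 of the 5 markers met the threshold of the study as higher (1.61% of all genes) and 0 as lower. In that interval the mean of Mmrn1 went from 1.064 to 4.019 CPM and that of Lyve1 from 6.52 to 14.96. Whether these markers account for the course of Ccl21a was not tested.

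Near-identical copies limit both genes. The table lists Ccl21b, Gm21541, Gm13304 and Gm10591, whose transcripts match Ccl21a over 99.3% to 99.5% of the aligned bases. They had 0, 4, 210 and 0 counts in all libraries together against 6753 for Ccl21a. For Ccl19, the pseudogenes Ccl19-ps1 (99.0% identical) and Ccl19-ps3 (100%) had 222 and 0 counts against 13735. How reads were shared among such copies depends on the aligner, so values of Ccl19 and Ccl21a may hold reads of a copy.

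Ccr7, which T cells and mature dendritic cells use to follow both ligands, was at 2.58, 0.299 and 0 CPM at 4 weeks and 0.0792, 0.684 and 1.42 at 6 weeks, in part at or under the limit of detection. It had 1.39, 9.77 and 11.5 CPM at 8 weeks, 26.7, 27.9 and 13.8 at 10 weeks and 26.2, 35.1 and 43.3 at 12 weeks. Only the 8-week mouse 1 kept the groups of 6 and 8 weeks from separating. The log2 fold change from 4 to 12 weeks was 5.16 (SE 1.03, fold 35.8, adjusted p 0.00147), and 7.93 without mouse 1 and 4.56 without mouse 3 at 4 weeks.

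Of the lymphotoxin genes, Ltb, which encodes the membrane-bound subunit, was the more abundant throughout. It had 4.68, 0.855 and 0.543 CPM at 4 weeks, 0.594, 1.82 and 4.06 at 6 weeks and 2.59, 16.6 and 35.1 at 8 weeks. The values were 88.9, 68.5 and 37.3 CPM at 10 weeks and 67.7, 70.3 and 78.7 at 12 weeks. Mice up to 8 weeks overlapped, and those of 10 weeks all lay above them. The log2 fold change from 4 to 12 weeks was 5.14 (SE 0.944, fold 35.3, adjusted p 0.000911), and 6.70 without mouse 1 at 4 weeks.

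Lta, whose product pairs with Ltb on the cell surface or is secreted as a trimer, was low at every age. The values were 0.262, 0.171 and 0 CPM at 4 weeks, 0.159, 0.368 and 0.552 at 6 weeks, 0.511, 1.53 and 1.96 at 8 weeks, 5.14, 3.49 and 2.19 at 10 weeks and 3.05, 4.11 and 3.93 at 12 weeks. All 8-week mice were above all 4-week mice, and mouse 1 at 8 weeks overlapped with 6 weeks. The log2 fold change from 4 to 12 weeks was 4.66 (SE 0.721, fold 25.2, adjusted p 0.000415), and it was 5.46 without mouse 1 and 4.06 without mouse 3 at 4 weeks.

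Ltbr, the receptor of the surface complex of Lta with Ltb, was nearly flat. It had 23.3, 21.4 and 22.9 CPM at 4 weeks, 24.3, 25.6 and 22.7 at 6 weeks and 22.3, 22.2 and 23.7 at 8 weeks. At 10 weeks it had 25.1, 28.4 and 23 CPM, and at 12 weeks 33.6, 24.2 and 27.5, so that neighbouring ages overlapped and only 12 weeks separated from 4. The fold change of 1.26 (log2 0.33, SE 0.111, adjusted p 0.0224) rested on single mice. The adjusted p was 0.112 without mouse 1 at 12 weeks, which carried intestinal genes, 0.0756 without mouse 2 at 4 weeks and 0.05001 without mouse 3 at 4 weeks. Over all other fits the log2 fold change of Ltbr was 0.20 to 0.58. The TPM means, which are not scaled by TMM, were 18.4 at 4 weeks and 30.3 at 12 weeks.

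Of the other TNF family ligands, Tnfsf13b (BAFF), made by myeloid and stromal cells, had 1.76, 0.769 and 0.434 CPM at 4 weeks, 0.555, 0.9997 and 2.21 at 6 weeks and 0.875, 4.67 and 4.57 at 8 weeks. It reached 8.87, 9.17 and 3.89 CPM at 10 weeks and 10.7, 7.52 and 11.8 at 12 weeks. Mouse 1 at 8 weeks was again among the young mice, and both later ages were above 4 and 6 weeks. The log2 fold change from 4 to 12 weeks was 3.33 (SE 0.681, fold 10.1, adjusted p 0.00166), and 4.06 without mouse 1 at 4 weeks. Tnfsf11 (RANKL), made by activated T cells and stromal cells, was at 0.524, 0.128 and 0 CPM at 4 weeks, 0, 0.4998 and 0.749 at 6 weeks and 0, 1.82 and 3.75 at 8 weeks. At 10 weeks it had 5.86, 4.70 and 2.49 CPM, and at 12 weeks 3.47, 4.35 and 4.97. The early ages thus lay near the limit of detection with mice at 0 counts up to 8 weeks. Its log2 fold change from 4 to 12 weeks was 4.26 (SE 1.26, fold 19.2, adjusted p 0.0125), and the call was lost without mouse 2 (adjusted p 0.0512) or mouse 3 at 4 weeks (0.0508). This log2 fold change was 6.06 without mouse 1 and 3.66 without mouse 3 at 4 weeks.

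The intervals of 2 weeks were then compared, each sharing its mice with the next. From 4 to 6 weeks none of the 9 genes was called by edgeR (0.00604% of all genes were called higher), none had an unadjusted p under 0.05 (3.79% of all genes higher), and in none did the groups separate (8.34% of all genes higher without overlap). From 6 to 8 weeks the edgeR quasi-likelihood test called 0 of the 9, and 0% of all genes, at an adjusted p under 0.05. At an unadjusted p under 0.05, 6 of the 9 were higher (10.9% of all genes), and the same 6 met the threshold of the study (8.40%). They were Cxcl13 (a log2 change of 4.80 with SE 0.712 and p values of 1.58e-05 unadjusted and 0.087 adjusted), Ccr7 (3.38, unadjusted p 0.00561), Ltb (3.08, 0.0043), Ccl19 (2.45, 0.0267), Lta (1.88, 0.0114) and Tnfsf13b (1.44, 0.0468). Cxcl13 alone separated between the ages, in 1 of 9 genes against 7.62% of all genes. By DESeq2, 3 of the 9 were called higher in this interval (Cxcl13, Lta and Ltb, against 2.64% of all genes), and by the edgeR exact test 1 (Cxcl13, against 1.61%).

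From 8 to 10 weeks 1 gene was called, Cxcl13 with a log2 fold change of 1.81 (SE 0.547, adjusted p 0.0433), where 8.40% of all genes were called higher. This call was lost in 12 of 16 other fits, among them those without any mouse of 8 weeks in turn, while the log2 fold change stayed between 1.42 and 2.15. DESeq2 called Lta (adjusted p 0.0367) and not Cxcl13 (0.0852) in this interval, with 14.4% of all genes called higher. Without mouse 3 at 8 weeks Ltb was called (0.0470) and not Cxcl13 (0.0855), with 10.5% of all genes called higher. Cxcl13, Ltb and Lta met the threshold of the study (11.1% of all genes), and 4 genes separated between the ages (Cxcl13, Ccr7, Ltb and Lta, against 17.2% of all genes). From 10 to 12 weeks 0 of the 9 and 0% of all genes were called by edgeR, and neither DESeq2 nor the edgeR exact test called any of the 9. Ccl21a was the single gene with an unadjusted p under 0.05 (3.53% of all genes higher), with a log2 change of 2.25 (SE 0.650; p 0.00434 unadjusted and 0.577 adjusted), which was 1.41 without mouse 2 at 12 weeks. It was also the single gene that met the threshold of the study (1.61% of all genes) and whose ages separated (4.42%). The 7 members other than Ccl21a and Ltbr had log2 fold changes of -0.03 to 0.61 in this last interval.

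**Figure D3:**
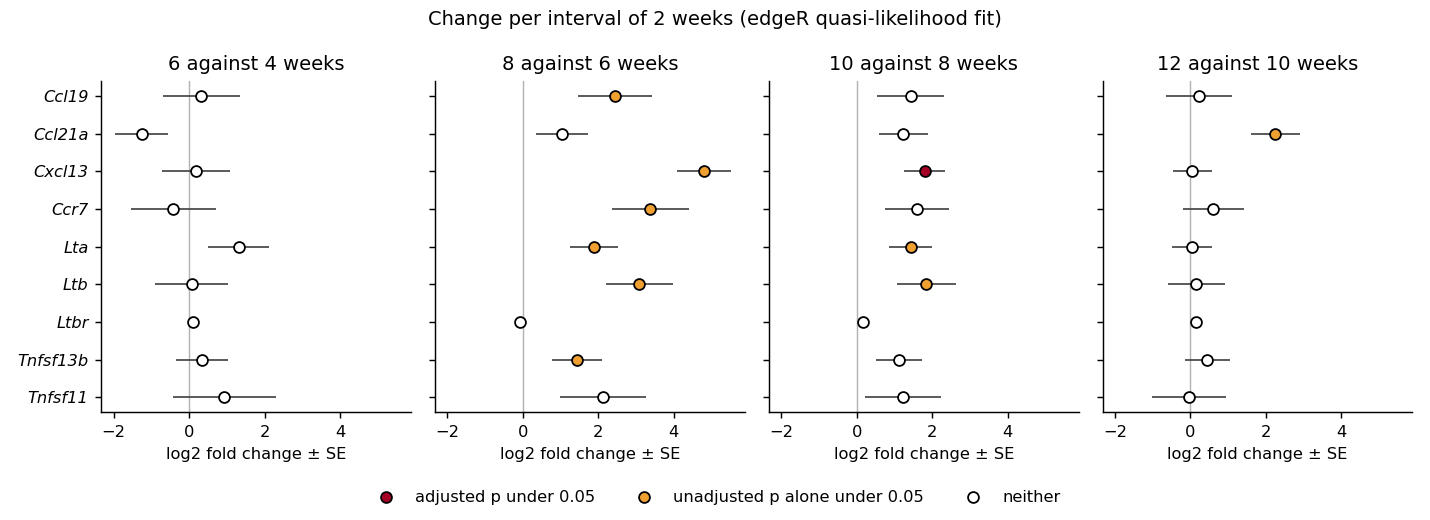
Log2 fold change ± SE of the 9 genes in each interval of 2 weeks (edgeR quasi-likelihood fit, 3 mice per age). Colour marks the test passed: the largest change is that of Cxcl13 from 6 to 8 weeks (4.80), and Ccl21a has its largest from 10 to 12 weeks (2.25).

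At 8 weeks Cxcl13 did not follow the other genes that rose. Mouse 1 had the highest Cxcl13 of its age (31.6 CPM) and the lowest Ccl19, Ccr7, Lta, Ltb, Tnfsf13b and Tnfsf11. On the log2 scale Cxcl13 exceeded Ccl19 by 4.21 in mouse 1 and by 0.03 in mouse 2, and was 1.56 below it in mouse 3. The same mouse had a mean of 9 T cell markers of -0.08 log2 CPM, against 3.85 and 4.36 in mice 2 and 3, while its mean of 6 B cell markers was 2.45 against 2.63 and 3.86. Without it, Cxcl13, Ccr7 and Ltb were called higher from 6 to 8 weeks, where 4.29% of all genes were. The range over 3 mice was smaller at 12 than at 8 weeks in 7 of the 9 genes, with Ltb going from 3.73 to 0.22 log2 units and Ccl19 from 4.47 to 0.42, whereas Ccl21a (1.84 and 2.09) and Ltbr (0.09 and 0.47) had the wider range at 12 weeks.

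**Figure D4:**
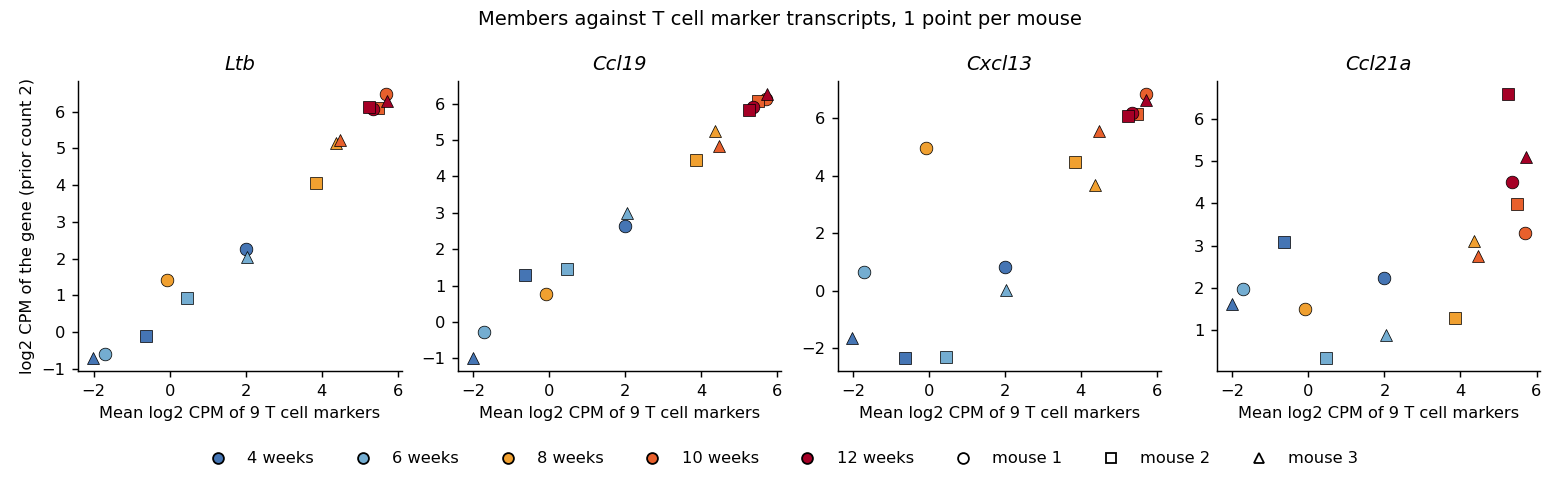
Level of 4 genes (log2 CPM) against the mean log2 CPM of 9 T cell markers, 1 point per mouse, coloured by age, with shapes for mouse 1, 2 and 3. Ltb and Ccl19 lie close to a line, Cxcl13 has an 8-week mouse at a T cell mean of -0.08 with 31.6 CPM, and the 12-week mice stand apart for Ccl21a.

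Markers of other cells moved over the same ages. From 4 to 12 weeks 9 of 9 T cell, 6 of 6 B cell, 6 of 6 dendritic cell, 8 of 8 macrophage and 8 of 8 fibroblast markers were higher. Of all genes, 26.3% were called higher. Lower were 10 of 12 endocrine markers (27.2% of all genes were called lower). The T cell mean ranged from -2.02 to 1.99 log2 CPM at 4 weeks and from 5.24 to 5.72 at 12 weeks, and the B cell mean from -2.76 to -0.93 and from 5.23 to 5.89. None of the 7 acinar markers passed. Of 4 markers of follicular dendritic cells, the stromal source of Cxcl13 in follicles, all 4 were higher, although Cr2 and Fcer2a are also B cell genes. Mfge8 rose by 3.08 (SE 0.397) on the log2 scale and Clu by 1.30 (SE 0.151). Both were already present at 4 weeks, with means of 37.7 and 256 CPM, when Cr2 and Fcer2a had 0.0677 and 0.121 CPM. These 4 genes therefore do not single out follicular dendritic cells in these samples. Of 5 lymphatic endothelium markers none was higher by adjusted p and 1, Prox1, which endocrine cells also express, was lower by a log2 fold change of -0.58. At the threshold of the study 1 of the 5 was higher (20.9% of all genes) and 0 lower. Of 6 blood endothelium markers 2, Pecam1 and Cdh5, were higher, which is near the share of all genes (26.3%). The part of these cell types in the 9 genes was not tested.

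The members were also set against such markers, or against one another, mouse by mouse. These 8 log2 ratios were compared between 4 and 12 weeks by exact permutation tests, two-sided, in which 3 mice against 3 cannot give a p below 0.1, so none could pass. Ccl21a over the lymphatic endothelium markers went from -1.42 ± 0.43 to 1.69 ± 0.52 log2 units (SD, n = 3 each, difference 3.11, exact p 0.1, adjusted p 0.16 over 8). Cxcl13 over Ccl19 went from -2.04 ± 1.51 to 0.31 ± 0.08 (difference 2.35, exact p 0.1, adjusted 0.16), Tnfsf13b over the macrophage markers from -3.54 ± 0.09 to -3.01 ± 0.11 (difference 0.53, exact p 0.1, adjusted 0.16), Lta over Ltb from -2.99 ± 0.96 to -4.27 ± 0.19 (difference -1.29, exact p 0.1, adjusted 0.16), and Ltb over the T and B cell markers from 1.27 ± 0.43 to 0.66 ± 0.11 (difference -0.61, exact p 0.1, adjusted 0.16). In these 5 the 3 mice of each age did not overlap. For Lta over Ltb this rested on the prior count of 2, since Lta had few or no counts at 4 weeks, and with a prior count of 0.5 the difference was -0.52 (exact p 0.7). Ltb over the T and B cell markers overlapped with library totals as scaling (difference -0.59, exact p 0.2). The differences of Ccl19 over Ccl21a (1.93, exact p 0.2), Ccr7 over the T cell markers (0.74, exact p 0.2) and Cxcl13 over the B cell markers (0.08, exact p 1) had overlapping ages, with adjusted p values of 0.229, 0.229 and 1. Ccl21a over the lymphatic markers was -1.41 at 8 weeks and 0.33 at 10 weeks. That list includes Prox1, which endocrine cells also express and which was lower at 12 weeks, so this ratio does not single out lymphatic cells.

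The partners of the 9 genes were taken as a list of 15 ligands and receptors, of which 14 were in the table and 12 could be tested. From 4 to 12 weeks 10 of the 12 were higher (26.3% of all genes) and none lower, with a median log2 fold change of 2.67. Cxcr5, the receptor of Cxcl13, had 0.861, 0 and 0.0362 CPM at 4 weeks and 18.5, 26.3 and 28.9 at 12 weeks (log2 fold change 6.31, SE 1.002, adjusted p 0.000459). Its 12-week mice were all far above the 4-week mice. The BAFF receptor Tnfrsf13c (7.40, SE 0.894) and TACI, Tnfrsf13b (4.39, SE 0.651), which also binds BAFF, both rose. Tnfsf14 (LIGHT), a further ligand of Ltbr, rose by 3.82 (SE 1.03) on the log2 scale and its other receptor Tnfrsf14 by 1.98 (SE 0.364). Tnf, the gene between Ltb and Lta, had a log2 fold change of 2.61 (SE 0.881, adjusted p 0.0244), and the TNF receptors Tnfrsf1b and Tnfrsf1a 3.53 and 0.80. For the RANKL axis, the decoy receptor Tnfrsf11b rose by 0.76 (SE 0.190), and the receptor Tnfrsf11a had 0.27 (adjusted p 0.137). Ackr4, a scavenger of Ccl19 and Ccl21, had 0.72 (adjusted p 0.403).

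Of 8 genes of the noncanonical NF-kB pathway, through which Ltbr signals, 6 were higher at 12 than at 4 weeks (26.3% of all genes) and none lower. Relb had 12.5, 6.07 and 7.13 CPM at 4 weeks and 49.1, 39.1 and 54.8 at 12 weeks (log2 fold change 2.48, SE 0.392, adjusted p 0.000455), without overlap. The partner subunit Nfkb2 rose by 2.27 (SE 0.417), the kinase Map3k14 (NIK) by 1.37 (SE 0.197) and its negative regulators Birc3, Traf2 and Birc2 by 2.47, 0.59 and 0.24 on the log2 scale. The kinase Chuk had -0.12 (adjusted p 0.189) and the adaptor Traf3 -0.06 (adjusted p 0.399). Of 13 genes of lymphoid tissue induction and lymphocyte homing, 12 were higher (26.3% of all genes) and 1 was lower (27.2% of all genes). Glycam1 and Chst4, genes of high endothelial venules through which lymphocytes enter lymph nodes, were at or below 3 counts in every 4-week mouse. Against that limit per library they were at least 1919-fold and 50.5-fold higher at 12 weeks. The addressin Madcam1 rose by 6.82 (SE 1.12), the adhesion molecules Vcam1 and Icam1 by 3.85 (SE 0.804) and 3.26 (SE 0.811), the cytokine Il7 by 3.45 (SE 0.738) and its receptor Il7r by 4.58 (SE 0.637), and the chemokine Cxcl12 by 1.33 (SE 0.233), all on the log2 scale.

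**Figure D5:**
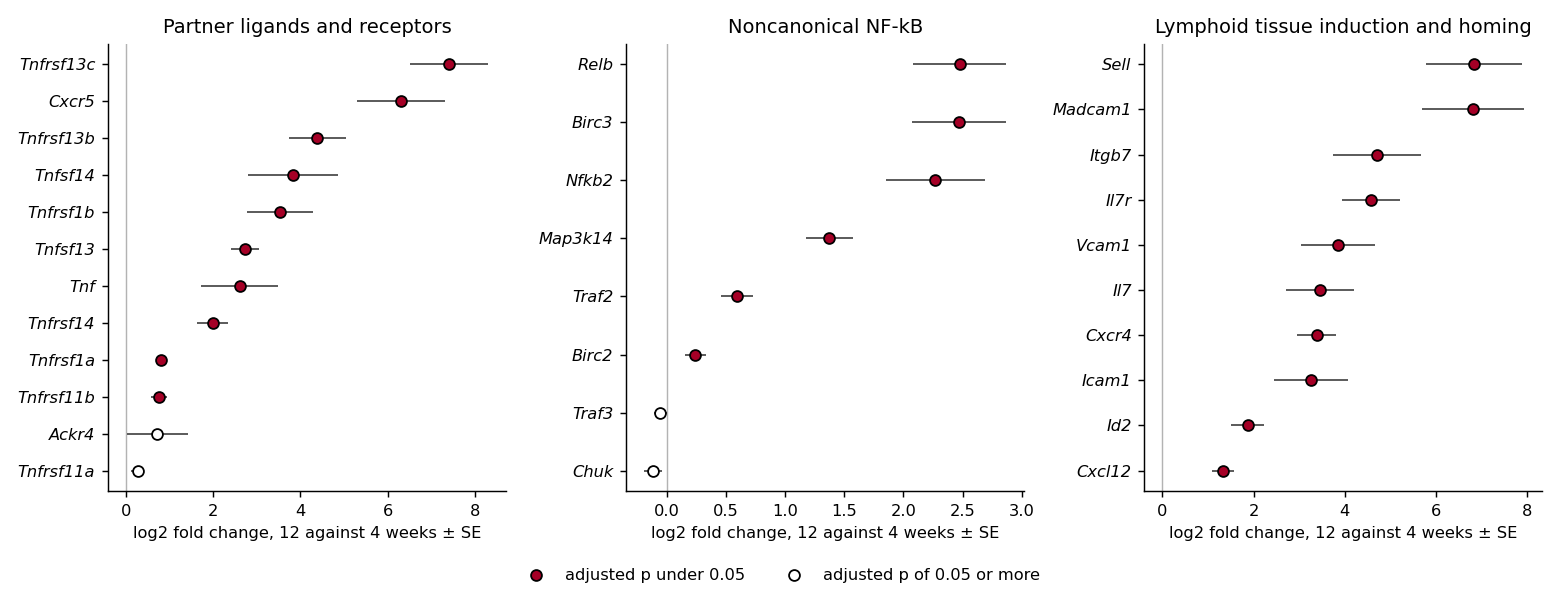
Log2 fold change ± SE from 4 to 12 weeks (edgeR quasi-likelihood fit) of testable partner ligands and receptors, of noncanonical NF-kB genes and of genes of lymphoid tissue induction and homing. Glycam1 and Chst4 are left out because their 4-week level was at the limit of detection, and the homing gene that was lower is not shown. Filled points passed an adjusted p under 0.05, and Ackr4, Tnfrsf11a, Traf3 and Chuk are the open points.

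Genes whose time course over the 15 mice was nearest to each member were found by the mean absolute distance of log2 CPM after subtracting each gene's own mean, as a description. The nearest to Ltb were Ptprcap (0.18) and Trac (0.22), and to Ccl19 Traf1 (0.18) and Spn (0.20), with Ptprcap, Trac and Spn known from T cells or leukocytes at large. Gimap3 was among those near Ccr7 (0.29). The nearest to Cxcl13 were Pou2af1 (0.71) and Siglecg (0.72), both known from B cells, and to Lta Lyl1 (0.26) and Tnfrsf13b (0.30). Ccl21a had no gene closer than Nxpe2 (0.54) and Slc45a3 (0.59), and Tnfsf13b lay nearest to Dram1 (0.15) and Serpinb6b (0.17). Tnfsf11 was nearest to Mcemp1 (0.34) and Clec12a (0.34), and Ltbr, which hardly varied, to Abhd17a (0.07) and Pgm1 (0.07). Within the 9, the closest pairs were Ccl19 with Tnfsf11 (0.35) and Ccr7 with Ltb (0.41).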

How the data were processed

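Islet RNA of 15 NOD females was enriched for polyadenylated transcripts and sequenced in read pairs. The authors trimmed, aligned and counted the reads in CLC Genomics Workbench at default settings; the labels name the build mm10, and whether counting used strand is not given in the sources used here. The deposited counts are whole reads per gene. The deposited TPM values were used only for levels between genes, and the deposited RPKM and scaled CPM (a score here) were not used.

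Genes were kept by filterByExpr (16554 of 48709), scaled by TMM and fitted with edgeR 4.0.16 in R 4.3.3 (glmQLFit and glmQLFTest, 1 mean per age, all 15 libraries, no covariate). P values were adjusted by Benjamini-Hochberg over all 16554 genes. Log2 CPM per mouse used a prior count of 2. Ratios were compared by exact permutation tests (Python 3.11.15, scipy 1.17.1), and figures were drawn with matplotlib 3.10.9. The fit was also run on simulated data, and the outcome of that run is not reported here. The limits at 3 counts cover counting error only, while the SD and SE values include differences between mice.

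The 9 genes are all named, together with the lists of partners, noncanonical NF-kB genes, homing genes and cell markers, the 2 genes nearest to each member, and copies of Ccl19 and Ccl21a. Some of the genes that fall under this rule are not reported here. Members and lists were chosen with earlier results of these data known. Alternatives were the size factors of DESeq2, library totals, no filter on low counts, the replicate block, a leukocyte covariate (the mean of Ptprc and the T cell, B cell and macrophage markers, 24 genes in all), the 2 ages alone, the edgeR exact test, DESeq2 1.42.0, a prior count of 0.5, and each mouse left out. Leaving out the libraries with intestinal genes was chosen after seeing the data.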

Additional observations from a re-analysis of the deposited data

How the results depend on the processing

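The calls of all 9 genes from 4 to 12 weeks held with the size factors of DESeq2, library totals, no filter, the 2 ages alone, the edgeR exact test and DESeq2. They ran from 7 to 9 genes with each mouse left out, and 8 were called without the libraries with intestinal genes. In the main fit 26.3% of all tested genes were called higher from 4 to 12 weeks. The shares of all genes in the other fits of this comparison are not reported here. With the leukocyte mean as a covariate, 0 of 9 were called from 4 to 12 weeks (1 gene of all). Over the 5 ages that fit called 1 of the 9, Cxcl13 (adjusted p 0.0398), against 7 to 9 with each mouse left out. The share of all genes called over the 5 ages in these fits is not reported here. The call therefore does not set Cxcl13 apart from other genes. Over the 5 ages Ltbr was called without mouse 2 at 12 weeks (0.0242). In the fit with the covariate the log2 fold change of Ccl19 was -0.37, -0.98, -0.62, -0.11 and -2.08 (6 against 4, 8 against 6, 10 against 8, 12 against 10 and 12 against 4 weeks). For Ltb it was -0.43 (6 against 4), -0.010 (10 against 8), -0.13 (12 against 10) and -0.52 (12 against 4), for Tnfsf13b -0.14, -0.64, -0.36 (the first 3 intervals) and -0.88 (12 against 4), for Tnfsf11 -2.08, -0.98 (8 against 6 and 10 against 8) and -3.03 (12 against 4), for Ccr7 -0.39 (10 against 8) and -0.52 (12 against 4), and for Lta -0.13 (12 against 10). The values listed so far are those whose sign was opposite to the main fit. The other intervals of these genes were positive for Ltb (0.048, 8 against 6), Tnfsf13b (0.26, 12 against 10) and Lta (0.99, 0.011 and 0.058, the first 3 intervals). Ccr7 had -0.82, 0.43 and 0.26 (6 against 4, 8 against 6 and 12 against 10), and Tnfsf11 0.48 and -0.45 (6 against 4 and 12 against 10). Cxcl13 was at 6.92 (adjusted p 0.0835), Ccl21a at 2.33 and Lta at 0.93 from 4 to 12 weeks, none of them called.

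From 6 to 8 weeks the count of called members was 0, with 1 by the edgeR exact test and 3 by DESeq2, and 0 to 3 with each mouse left out, the 3 without mouse 1 at 8 weeks. From 8 to 10 weeks it was 1, and 0 with no filter, the leukocyte covariate, the 2 ages alone, the edgeR exact test, or without the libraries with intestinal genes, and 0 to 1 with each mouse left out. The 1 gene was Lta by DESeq2 and Ltb without mouse 3 at 8 weeks, and otherwise Cxcl13. The log2 difference of Cxcl13 over the B cell markers was -0.385 with a prior count of 0.5, and -0.746 to 0.646 with each mouse left out. With each mouse left out, directions also turned within small changes from 4 to 6 weeks for Ccl19 (-0.74 to 1.45), Cxcl13 (-0.55 to 2.00), Ccr7 (-1.20 to 2.35), Ltb (-0.69 to 1.63) and Tnfsf13b (-0.32 to 1.06), and from 10 to 12 weeks for Ccl19 (-0.079 to 0.43), Cxcl13 (-0.21 to 0.44), Lta (-0.22 to 0.38), Ltb (-0.12 to 0.45) and Tnfsf11 (-0.31 to 0.24). Ltbr from 6 to 8 weeks was 0.019 with library totals, and Tnfsf11 from 10 to 12 weeks 0.10 without the libraries with intestinal genes. The cause of these changes was not tested.

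The replicate number as a block gave 0 called members from 8 to 10 weeks, 7 over the 5 ages (Tnfsf11 at an adjusted p of 0.0501) and a log2 fold change of -0.015 for Ltb from 4 to 6 weeks, and no other call changed. The mice share only a number: deviations of mice with the same number correlated at -0.504 to 0.509, and 2 of 15 libraries matched best with their own number. Levels at 4 and 6 weeks near 3 counts limit the size of the fold changes for Lta, Ccr7, Cxcl13 and Tnfsf11.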
